A study of Mus musculus with 24 samples.

Results

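The keratins and cornified envelope genes are the mouse protein-coding genes whose symbol starts with Krt and a number, Lce and a number, Sprr, or Tgm and a number, together with Flg, Flg2, Ivl, Lor, Hrnr, Rptn and Cnfn. Of 38321 gene IDs listed for every library, 77 met this name rule. They comprised 27 keratin, 21 Lce, 15 Sprr and 7 transglutaminase genes and the 7 genes named in full. All 27 keratin genes listed lay on chromosome 11, between 99232761 and 100269871 (GRCm38, GENCODE M21), and 42 genes of the set lay on chromosome 3 between 92080271 and 93399442. Another 26 genes of that annotation met the rule but were not among the listed IDs, Krt5, Krt4, Krt1, Krt8 and Krt6a among them. They are not analysed here, so the counts and shares below cover the listed genes and not the whole families. Wild-type female C57BL/6J mice, 11 weeks old at the start, were operated on day 0 and given corn oil under the skin from day 4. All of them received a silk ligature around both upper second molars on day 7, which causes periodontitis, and were killed on day 14. Sham mice had a sham operation and vehicle, OVX mice had both ovaries removed and received vehicle, and OVXE2 mice had both ovaries removed and received estradiol benzoate at 1 µg per day in 100 µL of oil. Gingiva around the upper molars and the dentoalveolar complex (DAC), which is the upper jaw bone harvested together with the teeth and cleaned of gum and other soft tissue, gave 4 poly(A) RNA-seq libraries each per group, 24 in all. No group without a ligature was used here. The libraries of a group are called biological replicates, but nothing in the labels ties a library to one animal or links gingiva and DAC by animal. The p-values therefore measure the spread between these libraries, which may be partly technical.

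Keratins are the intermediate filaments of epithelial cells. In stratified epithelium, basal cells make the type I keratins Krt14 and Krt15, and cells that leave the basal layer switch to Krt13 in lining mucosa or to Krt10 in epidermis and masticatory mucosa. Krt16 and Krt17 are raised in wounded and inflamed epithelium. In the outermost cells the transglutaminases cross-link loricrin (Lor), involucrin (Ivl), small proline-rich proteins (Sprr), late cornified envelope proteins (Lce) and S100-fused proteins such as filaggrin (Flg), hornerin (Hrnr) and repetin (Rptn) into a tough envelope beneath the plasma membrane. Gingiva carries such a keratinized epithelium on its oral face, whereas bone, cementum and dentin do not.

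Promoter sequences are shown for the gingival mucosal keratin gene, for 2 genes whose level in the DAC turned on a single library, and for 3 Sprr2 genes that lay higher in both ovariectomized gingival groups. They are the 250 bases before the RefSeq transcript start on GRCm38.p6, written 5′ to 3′ on the strand of the gene. Capitals mark matches on either strand to TATAAA, the TATA box, or to TGANTCA, the letters of an AP-1 type element. The genes are Krt13 (minus strand, chr11:100121567-100121816), Krt10 (minus strand, chr11:99389365-99389614), Rptn (plus strand, chr3:93393449-93393698), Sprr2b (plus strand, chr3:92316455-92316704), Sprr2d (plus strand, chr3:92338890-92339139) and Sprr2h (plus strand, chr3:92385435-92385684).
Krt13: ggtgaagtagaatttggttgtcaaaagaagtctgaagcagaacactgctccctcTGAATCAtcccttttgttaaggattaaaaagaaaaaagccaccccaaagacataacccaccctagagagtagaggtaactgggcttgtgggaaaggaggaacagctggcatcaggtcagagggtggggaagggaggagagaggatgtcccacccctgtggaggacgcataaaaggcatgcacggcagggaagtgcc
Krt10: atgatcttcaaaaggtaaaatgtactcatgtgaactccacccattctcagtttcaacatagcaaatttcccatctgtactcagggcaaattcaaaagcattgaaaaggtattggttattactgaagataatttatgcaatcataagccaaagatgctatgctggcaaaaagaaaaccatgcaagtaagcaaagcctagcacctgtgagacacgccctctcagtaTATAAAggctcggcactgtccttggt
Rptn: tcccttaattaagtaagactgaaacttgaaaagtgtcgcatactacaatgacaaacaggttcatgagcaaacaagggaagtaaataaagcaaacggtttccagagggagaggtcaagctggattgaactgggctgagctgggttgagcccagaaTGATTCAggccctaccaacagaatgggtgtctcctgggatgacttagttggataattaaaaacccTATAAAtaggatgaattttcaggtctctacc
Sprr2b: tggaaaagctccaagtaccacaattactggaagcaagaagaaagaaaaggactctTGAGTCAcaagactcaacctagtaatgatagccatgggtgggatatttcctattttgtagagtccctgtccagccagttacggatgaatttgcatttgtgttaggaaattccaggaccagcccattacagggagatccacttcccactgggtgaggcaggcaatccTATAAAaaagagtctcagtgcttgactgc
Sprr2d: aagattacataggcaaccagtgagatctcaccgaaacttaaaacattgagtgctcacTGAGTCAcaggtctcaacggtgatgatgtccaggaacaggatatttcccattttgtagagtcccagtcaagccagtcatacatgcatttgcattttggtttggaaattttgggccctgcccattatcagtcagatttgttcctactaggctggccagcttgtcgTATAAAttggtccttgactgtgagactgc
Sprr2h: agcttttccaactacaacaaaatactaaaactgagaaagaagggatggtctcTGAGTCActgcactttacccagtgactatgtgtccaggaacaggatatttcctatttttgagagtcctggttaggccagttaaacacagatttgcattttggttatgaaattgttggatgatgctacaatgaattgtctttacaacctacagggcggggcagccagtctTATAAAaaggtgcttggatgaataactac

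RefSeq promoters were matched for 67 of the 77 genes. TGANTCA was found in 7 of 10 Sprr2 promoters, in 0 of 13 Lce1 promoters and in 1 of 20 keratin promoters, that of Krt13, against 7.82% of all genes in the table. TATAAA was found in 12 of 20 keratin promoters, in 7 of 10 Sprr2 promoters and in 2 of 13 Lce1 promoters, against 14.3% of all genes. The estrogen response element, searched as GGTCA and TGACC with any 3 bases between them, matched in 0 of 67 promoters, against 0.0666% of all genes, which says only that these letters are not in those windows. The Sprr2a1 and Sprr2a2 promoters were identical over the 250 bases.

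Depth was 18598422 to 26001342 gene counts per gingival library and 14771830 to 29248358 per DAC library. In gingiva, 65 of the 77 genes passed the filter on low counts, in the DAC 57, and 66 in the fit over both tissues. The 11 that passed in none were 9 hair and nail keratins (Krt25, Krt26, Krt28, Krt31, Krt33a, Krt33b, Krt35, Krt39, Krt40) with Lce6a and Sprr4, each with 7 to 89 counts summed over all 24 libraries. Values are counts scaled to a common library size within a tissue (CPM, TMM scaling), as mean ± SD (n = 4), unless stated. The labelled tissues were checked against markers: 8 keratinocyte markers outside the set summed to 16566 to 19471 CPM in gingiva and 525 to 2101 CPM in the DAC, whereas 5 osteoblast genes summed to 58.2 to 148 CPM in gingiva and 5087 to 11421 CPM in the DAC. Several members share sequence with a near copy. Of the 75-base windows of their transcripts, 5.74% were unique for Sprr2a1, 5.37% for Sprr2a2 and 52.5% for Sprr2a3. The share was 54.4% for Lce3f, 58.9% for Lce3e, 61.4% for Lce3d, 71.1% for Krt16 and 72.0% for Lce3c. Values of these genes are uncertain, and 15 of the 77 genes were under 90% unique.

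In gingiva the 77 genes took 15.8% ± 0.854 (SD, n = 12) of all gene counts, and 14.0 to 17.3% in single libraries. Krt13, the type I keratin of mucosal suprabasal cells (ENSMUSG00000044041, chromosome 11, 100117327 to 100121566), alone took 5.94% ± 0.729 (SD, n = 12). Per kilobase of exon, on a scale common to both tissues, Krt13 stood at 34302 ± 5147 CPM per kb (SD, n = 12), followed by Krt16 at 11732 ± 1206, Krt14 at 10347 ± 1316 and Lor, the main envelope protein of cornified skin, at 5640 ± 963 CPM per kb. Krt16 and Krt14 differed by slightly more than the SD of either. Krt10 (3578 ± 859 CPM per kb) and the envelope gene Rptn (3525 ± 537) differed by less than their SD. Krt24 (4368 ± 719), named after its values were seen, lay between Lor and Krt10. Sprr3, an envelope precursor of mucosa, followed at 2940 ± 785 CPM per kb and Krt17 at 2265 ± 236, which differed by less than the SD of Sprr3.

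**Figure D1:**
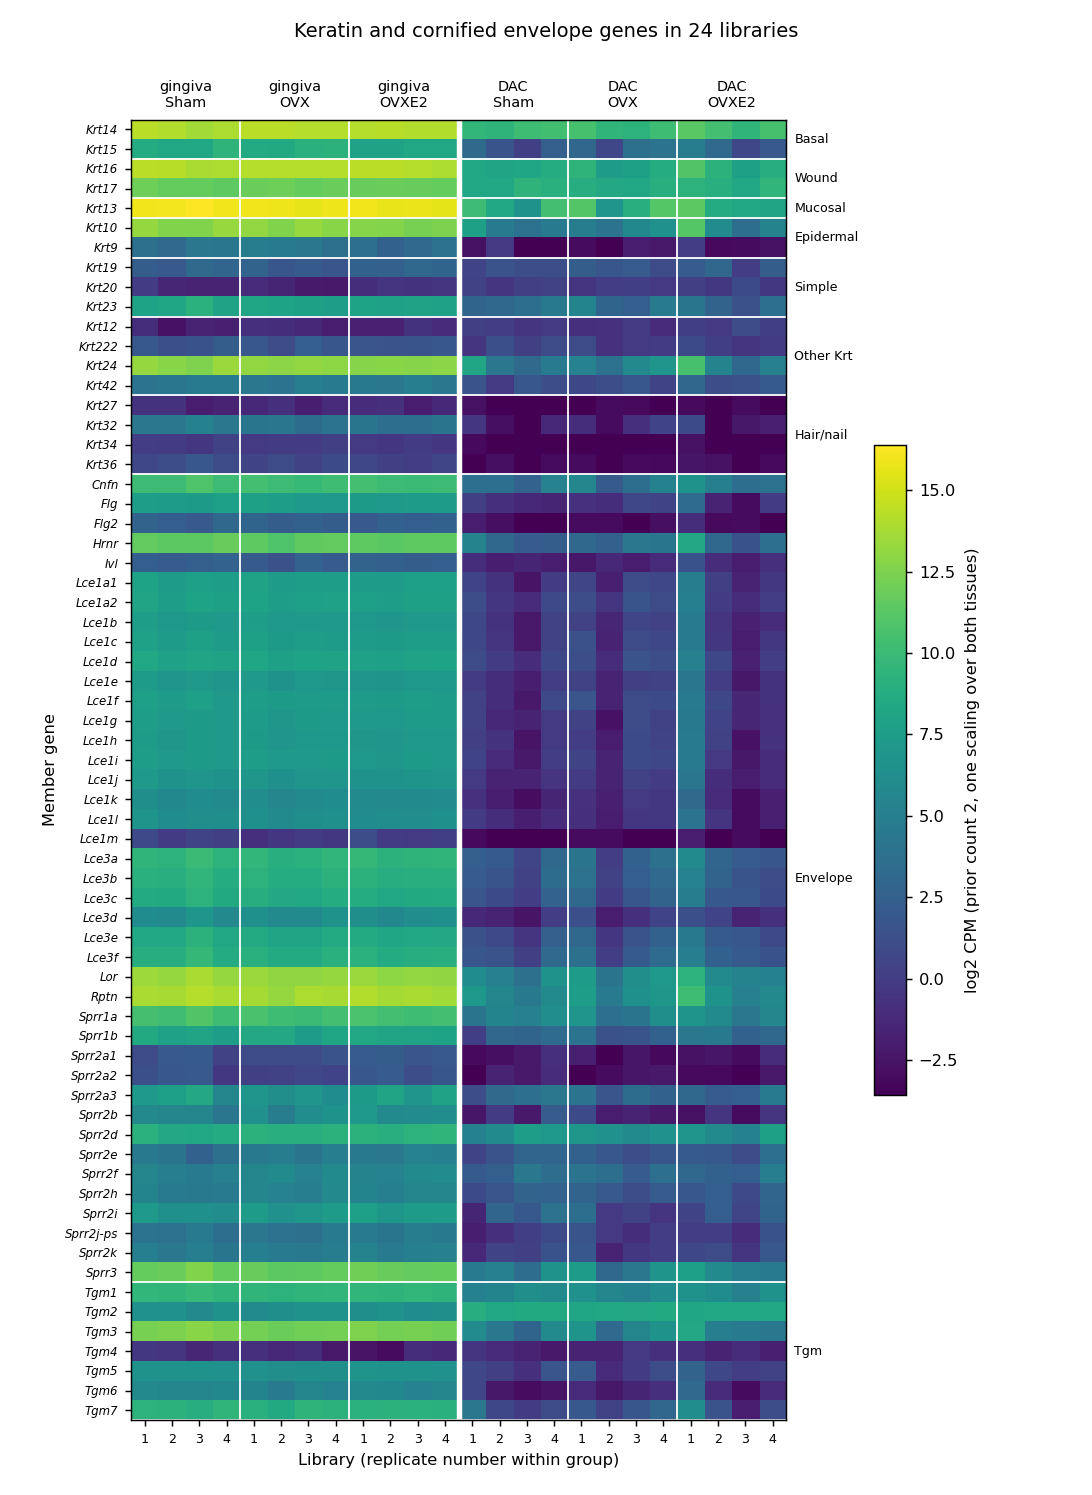
Heat map of log2 CPM (prior count 2, scaled over both tissues) for the 66 genes tested, in rows grouped by role, over 24 libraries in columns grouped by tissue and treatment. Gingival columns are bright for Krt13, Krt14, Krt16, Lor and Rptn in every group, and in the DAC the first OVXE2 column is brighter than the rest for most envelope genes.

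Among gingival libraries, Sham replicate 3 had the highest value of all 12 for 19 of 65 genes and Sham replicate 1 for 18. OVX replicate 2 had the lowest for 18. The share of all genes at these extremes is not given here. Sham replicate 3 held 82870 CPM of Krt13, against 60771, 65503 and 61532 in the other Sham libraries. Its Lor level was 14050 CPM and its Sprr3 level 6032 CPM, against 9369 to 10680 and 3070 to 3561 in the other 3. Its Krt14 level, 11995 CPM, was the lowest of the 12. Not all envelope precursors were high in it: Hrnr stood at 2476 CPM and Sprr2d at 301 CPM, against means of 2911 and 431 CPM in the other 3. It was also 1 of 4 gingival libraries with a low share of reads counted for the wrong strand, 3.81 to 4.76% against 6.59 to 9.03% in the other 8. The part of that share in its values was not tested.

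None of the most abundant gingival members passed the test between groups. Krt13 stood at 67669 ± 10344 CPM in Sham, 57144 ± 4634 in OVX and 54131 ± 5733 in OVXE2, with a log2 change of −0.32 ± 0.13 in OVXE2 against Sham (SE; adjusted p = 0.650, edgeR). Krt16 stood at 16882 ± 2664, 17638 ± 395 and 18071 ± 1902 CPM, and Krt17 at 3205 ± 519, 3535 ± 310 and 3327 ± 147 CPM, so these wound keratins showed no group far from the others. Among envelope precursors, Lor stood at 10902 ± 2180, 9081 ± 842 and 8757 ± 907 CPM. Rptn stood at 15106 ± 1825, 12705 ± 2444 and 14042 ± 1741 CPM. Both had their highest mean in Sham. Filaggrin was far less abundant, with 176 ± 23.1, 166 ± 38.4 and 153 ± 11.2 CPM of Flg, and Ivl had 5.12 ± 0.868, 4.14 ± 1.47 and 5.43 ± 0.846 CPM. Krt10 stood at 9172, 6132, 6002 and 9707 CPM in Sham, 8845, 6120, 9892 and 7238 CPM in OVX, and 6626, 6500, 4890 and 5527 CPM in OVXE2. Each group overlapped the others, and the OVXE2 values did not reach the highest ones of Sham and OVX. Its log2 change in OVXE2 against OVX was −0.45 ± 0.19 (SE; adjusted p = 0.335, edgeR).

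Other cell types moved with the gingival groups. The 6 leukocyte markers summed to 898 ± 126 CPM in Sham, 1463 ± 190 in OVX and 1316 ± 132 in OVXE2, with every Sham library below every other. The 5 skeletal muscle markers summed to 747 ± 489, 769 ± 428 and 2241 ± 1191 CPM, whereas the 8 keratinocyte markers outside the set summed to 18441 ± 904, 18042 ± 1199 and 17516 ± 567 CPM. The part of these cell types in the members' differences was not tested.

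Ovariectomy left the gingival set with no member past the test. None of 65 members passed in OVX against Sham (edgeR quasi-likelihood test with Benjamini-Hochberg adjustment), where 0% of all 12680 genes did. At an unadjusted p under 0.05 there were 9 members, against 12.1% of all genes, and DESeq2 called 0. Members higher in OVX numbered 20 of 65, and the median log2 change of the members was −0.09, against 0.01 over all genes tested. The group medians by family differed in sign. All 14 Lce1 genes and all 6 Lce3 genes, envelope precursors of cornifying cells, lay lower, with median log2 changes of −0.07 and −0.18. Each of these medians turned when 1 Sham library was left out. Without Sham replicate 3, 5 of 6 Lce3 genes lay higher (median 0.06), and without Sham replicate 1, 10 of 14 Lce1 genes did (median 0.03). The 8 Sprr2 genes other than the near-identical Sprr2a copies all lay higher, with a median of 0.55, and 6 to 8 of 8 did with any 1 library left out.

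The smallest p-values belonged to Tgm5, Tgm3 and Sprr2h. Tgm5, a transglutaminase of the outer epidermal layers, stood at 92.2, 93.9, 99.4 and 87.4 CPM in Sham and at 87.8, 77.5, 79.8 and 78.6 CPM in OVX. The groups overlapped by 1 library each, and the log2 change was −0.20 ± 0.06 (SE; adjusted p = 0.376, edgeR). Tgm3, which cross-links envelope and hair shaft proteins, stood at 4759, 5346, 7126 and 5275 CPM in Sham and at 4510, 3773, 4321 and 4666 CPM in OVX. The Tgm3 groups did not overlap, though the Sham group held the outlying replicate 3, and the log2 change was −0.38 ± 0.13 (SE; adjusted p = 0.376, edgeR). Without that library it was −0.24, with an unadjusted p of 0.0499 (edgeR). Sprr2h stood at 41.6, 24.7, 21.2 and 23.3 CPM in Sham and at 49.3, 38.3, 29.8 and 53.6 CPM in OVX. The Sprr2h groups overlapped through Sham replicate 1, and the log2 change was 0.63 ± 0.23 (SE; adjusted p = 0.378, edgeR).

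Estradiol after ovariectomy gave the same count in gingiva. None of 65 members passed in OVXE2 against OVX, where 0% of 12680 genes did, 8 members and 13.9% of all genes had an unadjusted p under 0.05, and DESeq2 called 0 (edgeR the main test). The members' median log2 change was −0.02, and 28 of 65 lay higher. Tgm5 stood at 103, 95.3, 95.8 and 86.1 CPM in OVXE2, near its Sham values and mostly above those in OVX. Its log2 change from OVX was 0.23 ± 0.06 (SE; adjusted p = 0.289, edgeR). Krt9, the keratin of palm and sole epidermis, stood at 27.5, 22.6, 20.8 and 12.9 CPM in OVX and at 12.3, 5.84, 8.87 and 13.6 CPM in OVXE2. OVX replicate 4 lay among the OVXE2 values and the other 3 above them, and the log2 change was −1.05 ± 0.31 (SE; adjusted p = 0.299, edgeR).

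Krt15, a keratin of basal cells, stood at 371, 364, 529 and 601 CPM in OVX and at 227, 235, 316 and 327 CPM in OVXE2. These groups did not overlap, but Sham ranged over both, at 395, 324, 299 and 660 CPM. The log2 change from OVX to OVXE2 was −0.75 ± 0.26 (SE; adjusted p = 0.305, edgeR). The other basal keratin, Krt14, had group means of 18647 ± 1428 CPM in OVX and 17472 ± 1095 CPM in OVXE2 (SD, n = 4). Sprr2a2 was at 0.993, 1.17, 1.40 and 1.21 CPM in OVX and at 3.39, 4.47, 1.97 and 3.10 CPM in OVXE2, with no overlap. Its log2 change was 1.44 ± 0.43 (SE; adjusted p = 0.298, edgeR), from 22 to 111 counts per library in a gene that is nearly the copy of Sprr2a1.

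Sham and estradiol-replaced gingiva differed in none of 65 members by the test (edgeR), where 0% of 12680 genes passed. There were 12 members with an unadjusted p under 0.05, against 7.41% of all genes, DESeq2 called 0, 20 of 65 lay higher in OVXE2, and their median log2 change was −0.12. Again all 14 Lce1 genes lay lower (median −0.16) and all 8 Sprr2 genes outside the Sprr2a copies lay higher (median 0.59). The groups overlapped in both sums. The 14 Lce1 genes summed to 1761 to 2439 CPM in Sham and 1652 to 1982 CPM in OVXE2, and the 8 Sprr2 genes to 534 to 913 and 793 to 1111 CPM. The OVX and OVXE2 comparisons share the Sham libraries, so the recurrence of a direction is not independent. Sprr2d, a small proline-rich envelope precursor (ENSMUSG00000042212, chromosome 3, 92339140 to 92340873), stood at 562, 334, 301 and 398 CPM in Sham, at 580, 470, 506 and 591 CPM in OVX, and at 598, 485, 609 and 673 CPM in OVXE2. Sham replicate 1 lay among the ovariectomized libraries and the other 3 below all of them. The log2 change of Sprr2d in OVXE2 against Sham was 0.57 ± 0.17 (SE; adjusted p = 0.630, edgeR).

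The hair keratins Krt36 and Krt32 came next by p-value. Krt32 stood at 19, 20.01, 35.7 and 18.8 CPM in Sham and at 16.8, 12.1, 11.6 and 16.2 CPM in OVXE2. The groups did not overlap, with a log2 change of −0.72 ± 0.23 (SE; adjusted p = 0.633, edgeR), and of −0.44 without Sham replicate 3. Krt36 changed by −0.85 ± 0.27 (SE; adjusted p = 0.633, edgeR), at 1.44, 2.01, 3.31 and 1.89 CPM in Sham and 1.41, 1.05, 0.903 and 1.39 CPM in OVXE2. Without Sham replicate 3 the median log2 change of the 66 members then tested was −0.05 for OVX and −0.04 for OVXE2, each against Sham.

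**Figure D2:**
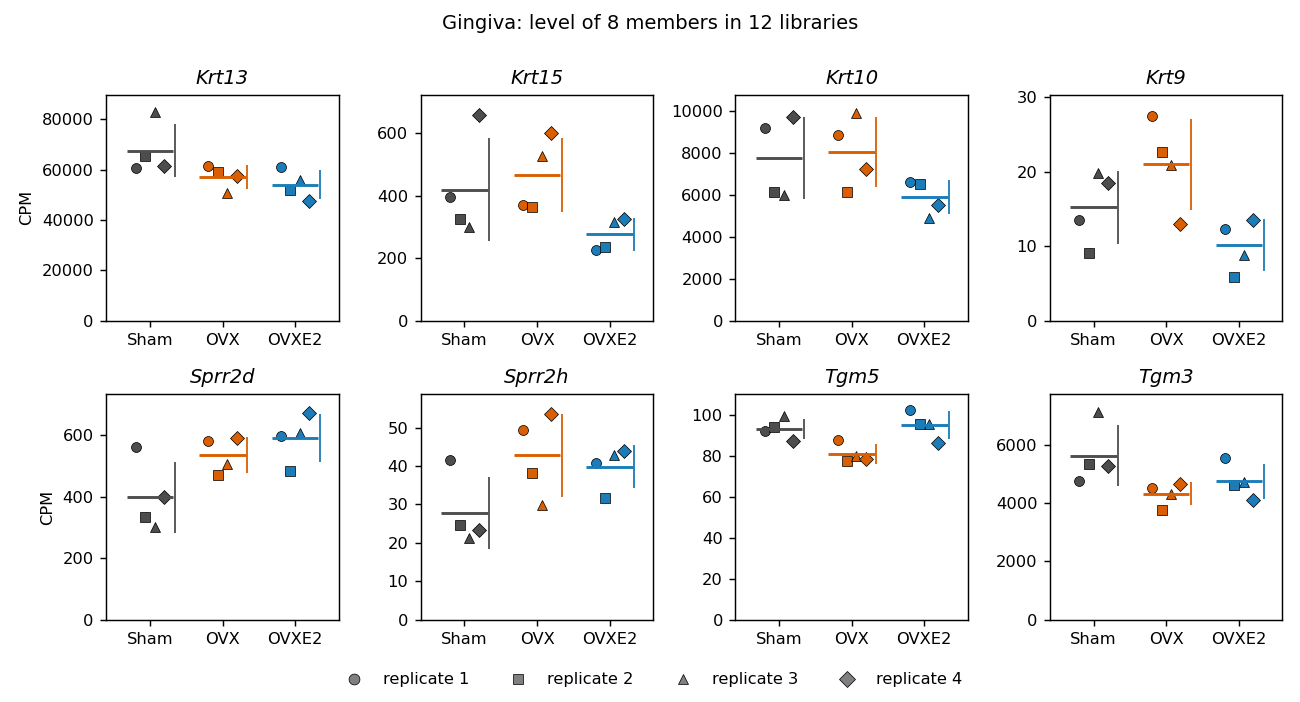
CPM of 8 genes in the 12 gingival libraries (linear axes from 0), by group, with the group mean as a horizontal line and the mean ± 1 SD as a vertical line. Sham replicate 3 is the highest Krt13 and Tgm3 point, the OVXE2 points of Krt15 lie below all OVX points, and the Sprr2d points of Sham other than replicate 1 lie below both ovariectomized groups.

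In the DAC the same 77 genes took 0.504% ± 0.393 (SD, n = 12) of gene counts, from 0.201% to 1.67% in single libraries. Per kilobase on the common scale the highest were Krt14 at 672 ± 297, Krt13 at 536 ± 508, Krt16 at 329 ± 321, Krt17 at 313 ± 101 and Sprr2d at 151 ± 85.8 CPM per kb (SD, n = 12). The SD of Krt13 and Krt16 was nearly as large as the mean, so their order against Krt17 does not exceed the spread, while Krt14 and Krt17 were steadier. Over the 12 libraries the median SD of log2 CPM was 1.45 for the members and 0.26 for all genes tested. In gingiva these medians were 0.30 and 0.19. The Lce1 genes showed the widest contrast, with a median SD of 0.18 in gingiva and 1.76 in the DAC.

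OVXE2 replicate 1 stood apart, with the highest value of the 12 DAC libraries for 37 of 57 members. The share of all genes highest in it is not given here. Krt10, the keratin of cornifying suprabasal cells (ENSMUSG00000019761, chromosome 11, 99385254 to 99389364), stood at 231, 27.0, 16.4 and 25.5 CPM in Sham, 31.1, 16.99, 57.3 and 96.9 CPM in OVX, and 2218, 69.1, 13.5 and 41.5 CPM in OVXE2. The first OVXE2 library lay far above all others, Sham replicate 1 came next, and the remaining libraries of the 3 groups overlapped. Rptn, an envelope precursor (ENSMUSG00000041984, chromosome 3, 93393699 to 93399442), stood at 140, 51.1, 24.3 and 68.1 CPM in Sham, 193, 27.8, 93.5 and 135 CPM in OVX, and 1216, 107, 38.2 and 59.2 CPM in OVXE2. Again 1 library was high and the groups otherwise overlapped. Hrnr reached 353 CPM in that library against 2.97 to 43.6 CPM in the other 11, and Krt24 reached 1544 against 9.49 to 331 CPM. By role, 25 of 37 envelope precursors, 4 of 6 transglutaminases, both basal keratins and 0 of 3 simple epithelial keratins tested were highest there. The envelope precursors not highest there were all Sprr2 genes tested, Sprr1a, Sprr1b and Lce3d. Sprr2d stood at 121 CPM in that library, against 38.3 to 228 CPM in the other 11. The 8 keratinocyte markers outside the set summed to 2101 CPM in OVXE2 replicate 1 and to 525 to 1288 CPM in the other 11 libraries. Among these markers Perp, a desmosome gene, reached 612 CPM with a median of 184 over the 12. In bulk tissue more epithelial cells and more RNA per cell cannot be told apart, and the part of retained soft tissue was not tested.

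Krt13 followed another pattern over the DAC libraries. It stood at 1197, 346, 108 and 1513 CPM in Sham, 2178, 120, 569 and 2307 CPM in OVX, and 2745, 442, 369 and 282 CPM in OVXE2. The 5 highest values came from libraries of all 3 groups, and every group overlapped the others. The ratio of Krt10 to Krt13 ran from 0.0143 to 0.808 over the 12 DAC libraries and from 0.0724 to 0.195 over the 12 gingival ones. Krt14 was steadier, at 857, 724, 1252 and 1420 CPM in Sham, 1562, 736, 694 and 1200 CPM in OVX, and 2475, 1451, 805 and 1587 CPM in OVXE2. Krt17 ranged from 339 to 794 CPM, and Krt16 reached 2061 CPM in OVXE2 replicate 1 against 186 to 693 CPM in the other 11. The 6 leukocyte markers summed to 3726 ± 240 CPM in Sham, 3665 ± 764 in OVX and 2189 ± 757 in OVXE2 (SD, n = 4). The 3 endothelial markers summed to 401 ± 17.9, 358 ± 29.4 and 506 ± 44.2 CPM and the 5 osteoblast markers to 7662 ± 360, 6890 ± 1328 and 9267 ± 1464 CPM, each with all OVXE2 libraries above all others. The part of these cell types in the members' values was not tested.

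**Figure D3:**
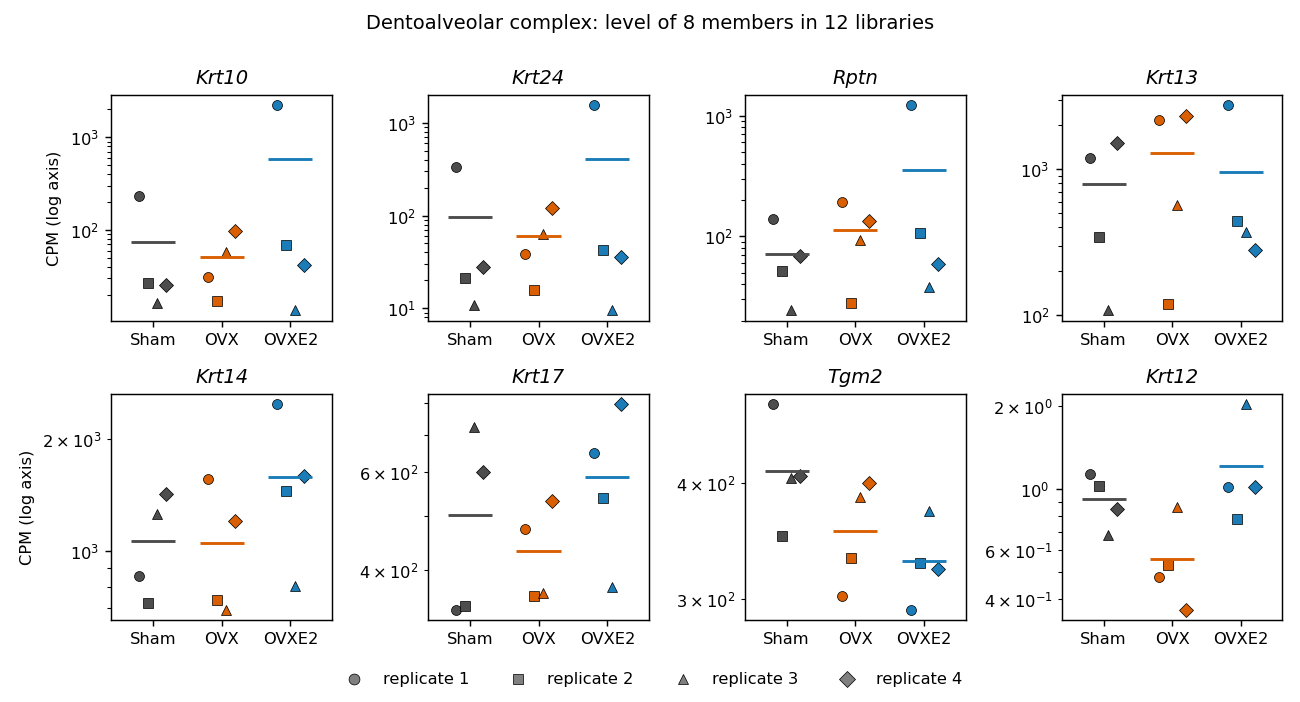
CPM of 8 genes in the 12 DAC libraries (log axes), by group, with the arithmetic group mean as a line. Replicate 1 of OVXE2 stands far above the rest for Krt10, Krt24 and Rptn, Krt13 ranges from 108 to 2745 CPM with all groups overlapping, and Krt17 and Tgm2 stay within 339 to 794 and 292 to 486 CPM.

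**Figure D4:**
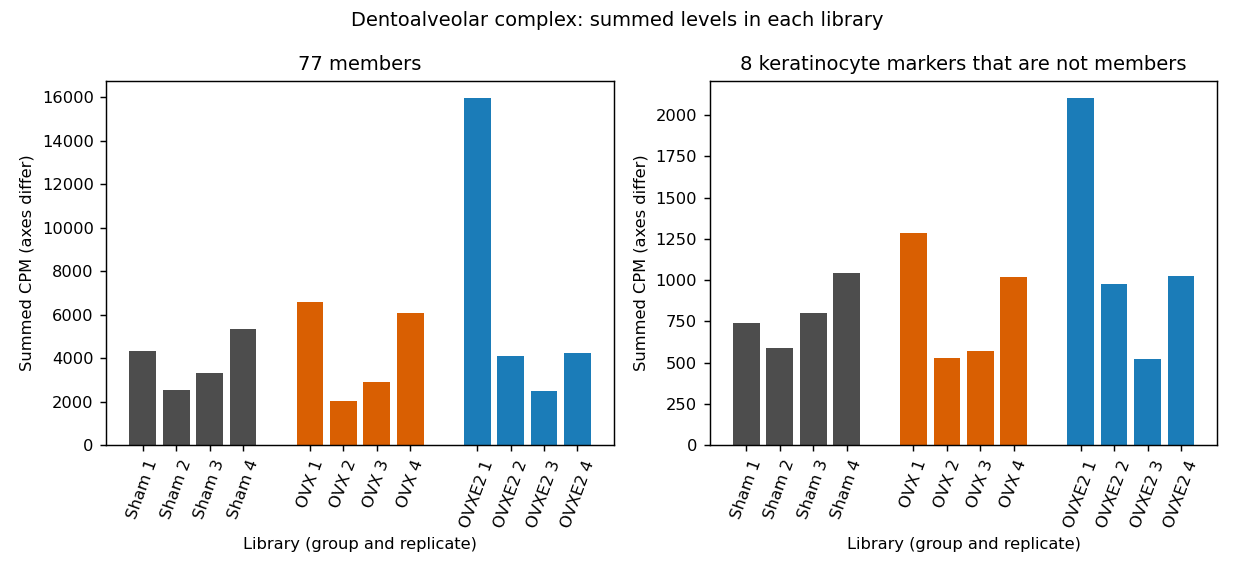
Summed CPM in each DAC library of the 77 genes (left) and of 8 keratinocyte markers that are not among them (right), on different linear axes from 0. OVXE2 replicate 1 is the highest bar in both, at 15952 and 2101 CPM.

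Ovariectomy against sham in the DAC had no member past the test. None of 57 members passed in OVX against Sham (edgeR), where 0% of 13617 genes did, 0 members and 3.21% of all genes had an unadjusted p under 0.05, and DESeq2 called 0. The median log2 change of the members was 0.49, and 38 of 57 lay higher. Without OVX replicate 1, the library with the most nasal and lateral gland transcripts (12 gland genes summed to 152949 CPM, against 2731 to 30777 elsewhere, a difference whose part was not tested), the members' median was 0.04. Krt12, the cornea keratin, had the smallest p. It stood at 1.13, 1.03, 0.680 and 0.845 CPM in Sham and 0.479, 0.532, 0.858 and 0.366 CPM in OVX, with 1 OVX library among the Sham values. Its log2 change was −0.72 ± 0.37 (SE; adjusted p = 0.874, edgeR), from 11 to 28 counts per library. Tgm2 (−0.21 ± 0.12) and the simple epithelial keratin Krt19 (0.76 ± 0.50, SE) had the next smallest p-values.

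Estradiol against vehicle after ovariectomy changed 2.13% of the 13617 DAC genes by the test (0.676% higher and 1.45% lower), and none of the 57 members (edgeR). There were 4 members with an unadjusted p under 0.05, against 10% of all genes, and DESeq2 called 0. The members' median log2 change was 0.75, with 50 of 57 higher in OVXE2. Leaving out OVXE2 replicate 1 turned this median to −0.66, with 18 of 57 higher. Krt10 had a log2 change of 3.53 ± 1.53 (SE; adjusted p = 0.452, edgeR), and of −0.29 without that library. The mean of the other 3 OVXE2 libraries was 41.4 ± 27.8 CPM (SD, n = 3), within the range of OVX. The change of Krt12, at 1.02, 0.782, 2.02 and 1.02 CPM in OVXE2, did not rest on it. A single OVX library lay within the OVXE2 range and the other 3 below it. The log2 change from OVX was 1.11 ± 0.36 (SE; adjusted p = 0.211, edgeR) and 1.18 without replicate 1. Ivl, an early envelope scaffold, stood at 0.120, 0.328, 0.163 and 0.399 CPM in OVX and 2.71, 0.410, 0.180 and 0.456 CPM in OVXE2. OVXE2 replicate 3 lay among the OVX values, replicates 2 and 4 just above them and replicate 1 far above. The log2 change was 1.87 ± 0.77 (SE; adjusted p = 0.396, edgeR), and 0.46 without replicate 1.

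Estradiol-replaced against sham DAC changed 1.05% of 13617 genes by the test (0.389% higher and 0.661% lower), and again none of the 57 members (edgeR). There were 13 members with an unadjusted p under 0.05, against 8.77% of all genes, and DESeq2 called 0. Without OVXE2 replicate 1 there were 0 such members, with the share of all genes in that fit not given here. The members' median log2 change was 1.25 and 50 of 57 lay higher, while without OVXE2 replicate 1 the median was −0.11 and 21 of 57 lay higher. The 13 Lce1 genes tested had a median of 3.15, and of −0.43 without that library. Among them Lce1a1 stood at 1.33, 0.577, 0.0971 and 0.939 CPM in Sham and at 29.4, 1.08, 0.270 and 0.701 CPM in OVXE2. Only the first OVXE2 library left the Sham range widely, and the log2 change of 3.39 ± 1.38 (SE; adjusted p = 0.477, edgeR) was −0.11 without it. Lce1j gave 3.33 ± 1.34 (SE; adjusted p = 0.464, edgeR) and −0.52 without that library. The smallest p was that of Tgm2, the tissue transglutaminase found in many cell types. Tgm2 stood at 486, 351, 405 and 407 CPM in Sham and at 292, 328, 374 and 323 CPM in OVXE2, where 1 OVXE2 library overlapped Sham. Its log2 change was −0.32 ± 0.12 (SE; adjusted p = 0.411, edgeR). The 8 Sprr2 genes outside the Sprr2a copies, all higher in gingival OVX and OVXE2, were higher for 2 and 5 of 8 in DAC OVX and OVXE2 against Sham, with median log2 changes of −0.14 and 0.10. Without DAC OVXE2 replicate 4, 0 of 8 were higher in OVXE2, with a median of −0.605.

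The tissues differed in nearly every member, and almost all were lower in the DAC. In Sham 65 of 66 members tested passed in DAC against gingiva (edgeR), 62 lower and 3 higher, where 75.1% of all 14209 genes passed in either direction, 35.4% lower and 39.7% higher. In OVX 63 passed, 61 lower and 2 higher, against 72.4% of all genes in either direction, 34.2% lower and 38.1% higher. In OVXE2 64 passed, 61 lower and 3 higher, against 72.1% in either direction, 34.1% lower and 38% higher. The members' median log2 change was −6.45 in Sham, −5.60 in OVX and −4.56 in OVXE2, and the last was −6.77 without DAC OVXE2 replicate 1 and −5.625 with a replicate block. Over the 54 members that DESeq2 tested the medians were −4.82 in Sham and −4.70 in OVX. Over all genes the medians were 0.07, 0.06 and 0.03. Of the 66 members, 9 (Flg2, Krt9, Krt27, Krt34, Krt36, Lce1m, Sprr2a1, Sprr2a2 and Tgm6) had passed the filter on low counts in gingiva only, so that their fall in the DAC was partly set by the filter, and Krt12 had passed in the DAC only. Of the 56 that passed in both tissues, 53, 52 and 52 were called lower in Sham, OVX and OVXE2 and 2 higher in each group. These included all 37 envelope precursors that passed in both, lower in each group.

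Members fell by different amounts. In Sham the filaggrin gene Flg changed by −8.37 ± 0.92 and Rptn by −7.89 ± 1.04 (SE, log2), with adjusted p-values of 5.57e-08 and 7.68e-07 (edgeR). Krt10 changed by −6.84 ± 1.35 (adjusted p = 0.00012, edgeR). Krt13 changed by −6.57 ± 0.99 and Lor by −7.70 ± 1.00. Smaller falls among the genes followed by role were those of Krt19 (−1.65 ± 0.45), Krt17 (−2.83 ± 0.25), Sprr2d (−1.98 ± 0.46), Tgm1, the membrane-bound keratinocyte enzyme (−3.81 ± 0.32), and Krt14 (−4.07 ± 0.33). Krt222 (−1.22 ± 0.43), Sprr2e (−1.62 ± 0.55) and Sprr2f (−1.67 ± 0.52), named after their values were seen, fell by less than Sprr2d. In OVXE2, the group that holds the outlying DAC replicate 1, Krt10 changed by −3.42 ± 1.15, Ivl by −2.61 ± 0.53 and Krt13 by −5.92 ± 0.96. The largest fall there was that of Sprr2b, −8.05 ± 0.91, followed by Lce3d at −6.07 ± 0.56. Sprr2b stood at 0.0703 CPM in DAC OVXE2 replicate 1 and at 0.412 ± 0.318 CPM in the other 3 (SD, n = 3). Flg stood at 0.0450 to 1.63 CPM in the 11 DAC libraries other than that one. The size and rank of these falls therefore rest on few counts in the DAC.

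Tgm2 went the other way in each group. Its log2 change was 2.19 ± 0.18 in Sham, 1.96 ± 0.18 in OVX and 1.92 ± 0.18 in OVXE2 (SE; adjusted p = 5.05e-10, 2.98e-09 and 4.01e-09, edgeR), and every DAC library lay above every gingival library of its group. Counted without regard to strand, its mean level was 53.8 instead of 81.2 CPM in gingival Sham and 271 instead of 412 CPM in DAC Sham. Krt20, a keratin of gut and urothelial lining cells, was higher by 1.33 ± 0.41, 1.87 ± 0.44 and 0.95 ± 0.39 in Sham, OVX and OVXE2 (SE, log2), at 0.641 to 1.29 CPM in DAC Sham. The Sham libraries of the tissues overlapped. Its call in OVXE2 (adjusted p = 0.036, edgeR) was lost when any gingival OVXE2 library or DAC OVXE2 replicate 1 or 3 was left out, with adjusted p-values of 0.0541 to 0.189, with a replicate block (0.0707) and without the filter on low counts (0.079). Krt12 was higher in Sham (1.88 ± 0.44) and OVXE2 (1.74 ± 0.41) and not past the test in OVX (0.56 ± 0.43, SE; adjusted p = 0.246, edgeR), where it passed when strand was ignored (2.10). Krt19 was lower in Sham (−1.65 ± 0.45) and did not pass in OVX or OVXE2, and Tgm4, the prostate transglutaminase, passed in none of the 3.

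**Figure D5:**
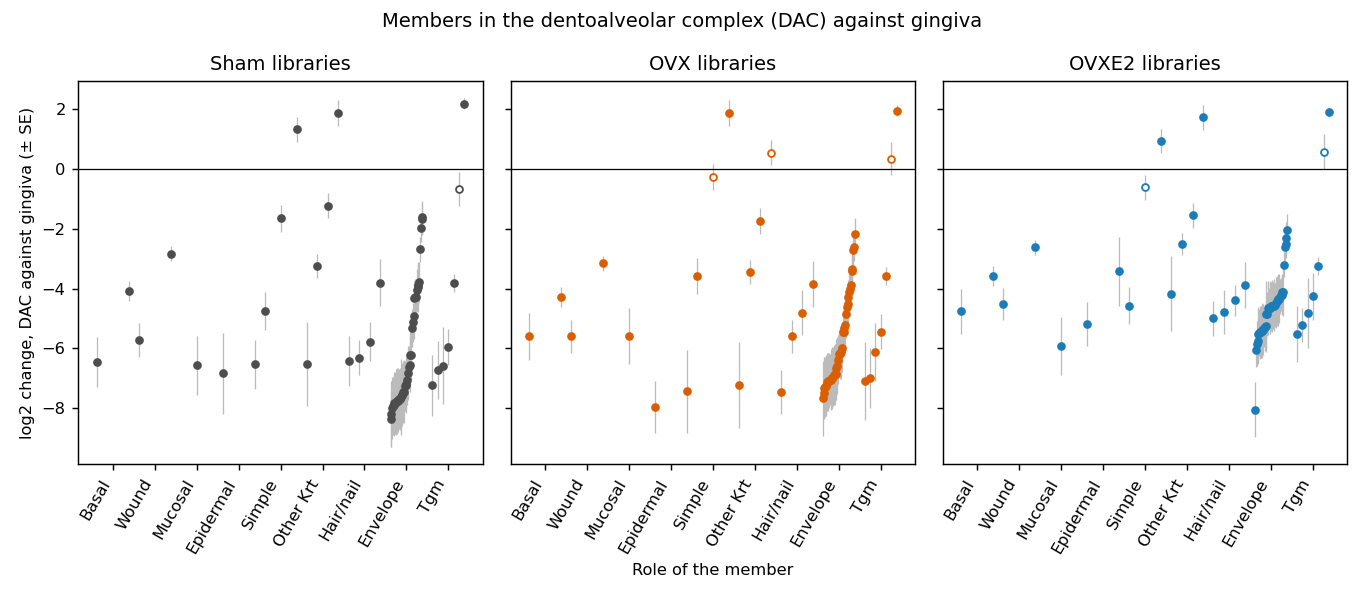
Log2 change of each of the 66 members in DAC against gingiva with its SE (edgeR), by role, in Sham, OVX and OVXE2; filled points passed at an adjusted p under 0.05 and open points did not. Nearly all points lie below 0, the exceptions in at least 1 group being Tgm2, Krt20, Krt12 and Tgm4, and the members' median is −6.45 in Sham and −4.56 in OVXE2 (−6.77 without DAC OVXE2 replicate 1).

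No member's response to ovariectomy or estradiol differed between the tissues by the test. In the interaction of tissue with OVX against Sham 0 of 66 members passed (edgeR), as did 0% of 14209 genes. With OVXE2 against OVX 0 of 66 members passed against 0.19% of genes (0.0704% higher and 0.12% lower), and with OVXE2 against Sham 0 of 66 against 0.0633% (0.0352% higher and 0.0282% lower). Members with an unadjusted p under 0.05 numbered 2, 12 and 18 of 66, against 8.53%, 8.81% and 7.81% of all genes, and DESeq2 called 0 in each. Without DAC OVXE2 replicate 1 they numbered 2, 6 and 1, with the share of all genes in that fit not given here. Krt10 had the smallest p for OVXE2 against OVX, with a difference of log2 changes, DAC minus gingiva, of 4.02 ± 1.54 (SE; adjusted p = 0.472, edgeR). Without DAC OVXE2 replicate 1 it was 0.18. Lce1a1 did so for OVXE2 against Sham, with 3.60 ± 1.28 (SE; adjusted p = 0.537, edgeR), and 0.08 without that library.

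Other genes of cornification followed the same division. Of 62 regulators and makers of the cornified layer outside the set, 42 were listed and 41 tested. None passed in any of the 6 comparisons within a tissue (edgeR). In gingiva 32 of 41 lay lower in OVX than in Sham, with a median log2 change of −0.20 and 14 at an unadjusted p under 0.05, against 12.1% of all genes, led by Klf5, a transcription factor of proliferating epithelium (−0.26 ± 0.07, SE; adjusted p = 0.376, edgeR). In DAC against gingiva 40, 41 and 40 of 41 passed the test as lower in Sham, OVX and OVXE2 (edgeR), against 35.4%, 34.2% and 34.1% of all genes. The gene that did not pass in Sham and OVXE2 was Cstb, the protease inhibitor cystatin B, at −0.23 ± 0.14 and −0.18 ± 0.14 (SE, log2; adjusted p = 0.152 and 0.256, edgeR). The 8 keratinocyte markers outside the set were all lower in the DAC in each group, with medians of −4.54, −4.57 and −3.96. Krtdap, Lypd3 and Sfn are in both lists, so the lists are not independent.

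Over the 12 gingival libraries the genes outside the set whose log2 CPM most resembled Krt13 included Aldh3a1 (Pearson r = 0.932), Cyp51 (0.924), Pir (0.920) and Emd (0.917). Aldh3a1 encodes an aldehyde dehydrogenase and ran from 962 to 3371 CPM. The points share libraries, scaling and the outlying Sham replicate 3, and the values describe these 12 libraries only.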

How the data were processed

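Per the submitters' processing notes the authors used fastp, STAR and DESeq2 with GRCm38 (mm10); their versions and the annotation release are not stated there. The authors deposited raw counts of reads per gene for each library, with a column per strand setting. Column 4 was taken, which held the larger part of the reads (3.38 to 9.03% fell on the other strand). GENCODE M21 named 38186 of 38321 IDs. Members and lists were chosen with earlier results of these data known. From the counts, genes passing filterByExpr were fitted by edgeR 4.0.16 in R 4.3.3 (TMM, glmQLFit with robust estimation, glmQLFTest), per tissue (9 residual degrees of freedom) or over both tissues (18). Benjamini-Hochberg adjustment ran over all genes tested, with a threshold of 0.05. The fit was tested on simulated data. Alternatives were DESeq2 1.42.0, its size factors, no filter, unstranded counts, a replicate block, only the groups compared, and each library left out.

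Named members were those past the test (the 10 with the largest change, at a mean of at least 1 log2 CPM), otherwise the 3 with the smallest p, a panel by role, the highest per length, and the 5 genes most like Krt13, of which 1 is not reported here. Krt20, Krt24, Krt222, Sprr2e, Sprr2f, Tgm4 and the Lce1, Lce3 and Sprr2 family counts were added after their values were seen. SE was taken as the absolute log2 change over the square root of F. Unique windows were counted among GENCODE M21 transcripts.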

Additional observations from a re-analysis of the deposited data

Results flagged for a closer look

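In 264 sets of 4 libraries (a named gene in a group), 11 held a library far from the other 3 in log2 CPM by Dixon's test at 95%, which chance gives in about 1 in 20 sets.

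Of these, 5 were in gingival Sham replicate 3. It held 1866 CPM of Cnfn against 1064 to 1089 in the other 3, 35.72 CPM of Krt32 against 18.8 to 20.01, 601.8 CPM of Lce3e against 300.1 to 315, 795.6 CPM of Lce3f against 409.2 to 456, and 53.37 CPM of Tgm2 against 86.82 to 94.95. Sprr2a1 in gingival OVX replicate 4 was 2.743 CPM against 1.813 to 1.899.

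In the DAC, OVX replicate 2 was low for Lce1a1 (0.2047 CPM against 1.477 to 2.044), Lce1b (0.2866 against 1.197 to 1.512) and Lce1e (0.2457 against 1.144 to 1.264). OVXE2 replicate 1 was high for Lce1j (19.64 CPM against 0.18 to 0.4467) and Tgm3 (362 CPM against 22.24 to 32.84).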

How the results depend on the processing

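The 12 counts of members past the test stayed within 1.5 times in all 294 recomputed counts: 0 within each tissue and in each tissue difference of effect, and with 1 library left out 65 to 66, 63 to 64 and 64 to 66 for DAC against gingiva in Sham, OVX and OVXE2. DESeq2 called 51, 49 and 51 of 54 members it tested there. The main test called 75.1%, 72.4% and 72.1% of all genes in these comparisons (edgeR), and the DESeq2 share of all genes is not given here.

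Same-numbered libraries deviated together in few cases (correlation over 0.1 in 3 of 12 gingival, 5 of 12 DAC and 2 of 12 cross-tissue pairs), so the numbers were not taken as pairs. With the replicate block the counts were 0 within tissues and in the differences of effect, and 65, 63 and 63 between tissues; 1, 4 and 3 of 12 libraries correlated best with their own number.

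Without DAC OVXE2 replicate 1 several log2 changes turned negative, the lowest over all libraries left out: Krt10 in DAC OVXE2 against OVX ran from −0.2888 to 4.059, Lce1a1 and Lce1j in DAC OVXE2 against Sham from −0.1102 to 3.861 and from −0.524 to 3.729. The tissue differences ran from −1.098 to 3.186 for Lce1j and −0.755 to 3.593 for Lce1l (OVXE2 against OVX), and from −0.3903 to 3.896 for Lce1j (OVXE2 against Sham). Krt19 in DAC against gingiva in OVX ran from −0.429 to 0.048, the latter without gingival OVX replicate 1. The cause of the last was not tested. The members' DAC median ran from −0.6604 to 1.271 and from −0.1102 to 1.631 over libraries left out, for OVXE2 against OVX and against Sham. Added after seeing the data, the other-strand set as a term, or only its higher set, called 0 members within tissues. DAC genes near 1 CPM rest on few counts (11 to 45 per library for Krt12), and small changes there were not detectable at this depth.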
